A study of Mus musculus with 14 samples.

Results

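The regions described here are binding sites of MLL1 in mouse MLL-AF9 leukemia cells that carried the histone mark H3K4me2 but no called peak of WDR5, the partner protein of MLL1. They were chosen from 3 peak lists of cells that had received only the solvent DMSO. An autosomal MLL1 peak was taken when it shared at least 1 bp with an H3K4me2 peak and no base with a WDR5 peak. This gave 3933 of 8482 autosomal MLL1 peaks (8525 on all chromosomes), or 46.4% (95% Wilson interval 45.3 to 47.4%), and 89.6% (88.7 to 90.5%) of the 4390 autosomal MLL1 peaks with H3K4me2. They are called WDR5-negative sites below. The remaining autosomal MLL1 peaks were 457 WDR5-positive sites, with both H3K4me2 and WDR5, and 4092 sites outside H3K4me2.

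MLL1 is a methyltransferase that writes methyl groups on lysine 4 of histone H3, and WDR5 is a core subunit that MLL1 and its relatives share and that supports their catalytic activity. H3K4me2, the dimethylated form, marks promoters and enhancers in broad domains, while MLL1 and WDR5 are mapped as narrow peaks. MM-401 was designed to keep WDR5 from binding MLL1.

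Chromatin immunoprecipitation and sequencing (ChIP-seq) was done in mouse bone marrow cells transduced with MLL-AF9, called MAF9 cells, which received 20 µM MM-401 or its solvent DMSO for 2 days. A second culture was of MAF9-transduced cells with the Mll1 flox/flox alleles and ER-Cre+/-, a tamoxifen-activated recombinase, which received 400 nM 4OHT or its solvent EtOH for 2 days. All cells therefore carried the MLL-AF9 fusion and were grown with 15% serum and 10 ng/ml IL-3. WDR5 and H3K4me2 were mapped under all 4 conditions and MLL1 under DMSO and MM-401 only, with 1 library per antibody and condition. The antibody used for MLL1 recognises its C-terminal part, which the MLL-AF9 fusion lacks. Because MLL1 was not mapped in the flox cells, deletion of Mll1 under 4OHT could not be checked in the peak lists. The study assessed it by genotyping. DMSO differs from EtOH and 4OHT in both the cells and the treatment.

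The files hold peak positions without heights or read counts, so the depth is unknown, and a site without WDR5 is a site where no WDR5 peak was called. The DMSO WDR5 list held 14481 peaks, against 17273 under MM-401, 34587 under EtOH and 41054 under 4OHT, and the H3K4me2 lists held 91305 to 105136 peaks. The DMSO MLL1 list came from another peak caller than the other 9 lists. Those 9 lists also stopped short on 7 chromosomes, so that 175 autosomal MLL1 peaks lay past their last position and could not be WDR5-negative sites. Leaving these out of the background changed it little, for example from 51.1 to 52.2% for H3K4me2 under MM-401. Intervals cover the counting of peaks only and take neighbouring peaks as independent. With no replicates, no p-value is given.

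WDR5-negative sites were narrow and lay well inside their H3K4me2 domains. Their median width was 182 bp, with quartiles of 163 and 205 bp, against 186 bp for WDR5-positive sites and 176 bp for sites outside H3K4me2. One site stood apart at 4599 bp (chr11:3054520-3059118, positions in mm9), and the next widest measured 613 bp. This widest site, singled out after its values were seen, had a 250 bp H3K4me2 peak over part of it. H3K4me2 overlapped it again under MM-401 but neither under EtOH nor under 4OHT, and WDR5 overlapped it under MM-401 and EtOH. Of all WDR5-negative sites, 92.6% (91.8 to 93.4%) lay wholly inside H3K4me2, and 62.7% (61.2 to 64.2%) had their centre in the middle 50% of the domain. For WDR5-positive sites these shares were 92.8% and 67.0% (62.5 to 71.1%).

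The host domain of a site, defined as the widest DMSO H3K4me2 peak it overlapped, had a median width of 2575 bp, with quartiles of 1650 and 4125 bp and a range from 75 to 31325 bp. The median over all 102640 autosomal H3K4me2 peaks was 425 bp. WDR5-positive sites had hosts of nearly the same width, with a median of 2600 bp. The 3933 sites fell in 3552 hosts, of which 3230 held 1 such site, 322 held 2 or more, and 4 held 5. In 80 hosts a WDR5-positive site was present as well. The share of H3K4me2 peaks that hosted a WDR5-negative site climbed with width, from 0.286% of peaks up to 500 bp to 5.23% at 1001 to 2000 bp and 34.2% above 5000 bp. These widths belong to the lists that chose the sites and are a description.

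A minority of sites had WDR5 in the same domain without a shared base. A WDR5 peak lay elsewhere in the host of 1333 sites, or 33.9% (32.4 to 35.4%), and the hosts of the other 2600 sites held none. Of the 1333 sites, 947 had a host with 1 WDR5 peak, 272 with 2 and 114 with 3 or more. The distance from the edge of the site to the nearest WDR5 peak in the host had a median of 507 bp, with quartiles of 206 and 1158 bp and a highest value of 17496 bp. It was at most 200 bp at 24.5% of these sites, at most 1000 bp at 70.7% and at most 2000 bp at 87.3%. Hosts with WDR5 were wider, with a median of 3675 bp against 2125 bp for sites whose host held none. In the hosts without WDR5 the nearest WDR5 peak anywhere was at a median of 19875 bp, and 11.2% (10.0 to 12.4%) of the sites had one within 2000 bp. Over all WDR5-negative sites the median was 6878 bp, and 37.1% (35.7 to 38.7%) had one within 2000 bp.

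**Figure D1:**
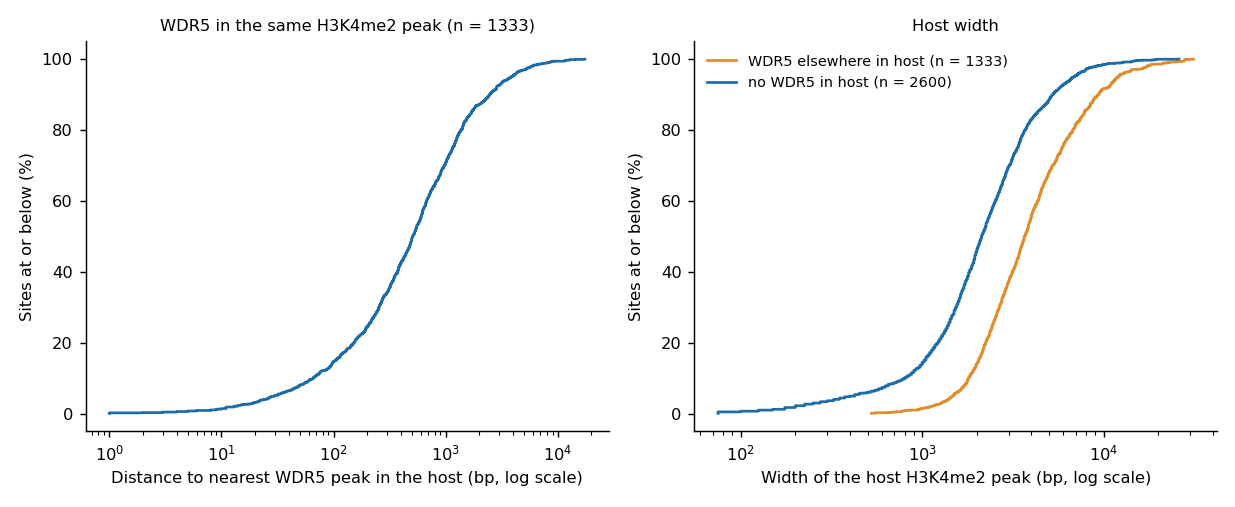
Left, cumulative share of the 1333 WDR5-negative sites with WDR5 elsewhere in the host, against the distance in bp to the nearest such peak on a log axis (the site at 0 bp is drawn at 1 bp). Right, cumulative share of sites against host width in bp on a log axis, for sites with and without WDR5 in the host. The distance curve passes 50% near its median of 507 bp, and hosts with WDR5 (median 3675 bp) lie to the right of hosts without (2125 bp).

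The boundary of the rule cut through a continuous range of distances. One site abutted a WDR5 peak with no shared base, and 54 more were 1 to 25 bp away. The closest of the latter that can be named were chr8:113369457-113369674 and chr17:71901602-71901809, both 1 bp from WDR5, and chr10:80214566-80214748 at 2 bp. On the other side, 55 WDR5-positive sites shared 25 bp or fewer with WDR5, among them chr5:109123050-109123231 with 1 shared bp, and chr1:37597574-37597805 and chr4:88183599-88183748 with 2 each. Under 4OHT the site on chromosome 5 was again overlapped by WDR5, while under MM-401 and EtOH its nearest WDR5 peak was 53099 and 24899 bp away. The near misses also included a site that changed sides, chr17:71901602-71901809, which was overlapped by WDR5 under MM-401 and lay 25076 bp from WDR5 under EtOH.

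Hosts of WDR5-negative sites were compared with H3K4me2 peaks of the same class of width that held no MLL1. The intervals of the shares holding WDR5 overlapped in every class. Up to 500 bp WDR5 was present in 0 of 157 hosts (upper bound 2.39%) and 1.79% of MLL1-free peaks, at 501 to 1000 bp in 8.37 and 8.63%, and at 1001 to 2000 bp in 17.1% (14.8 to 19.6%) and 19.6% (19.02 to 20.2%). In the class of 2001 to 3000 bp it was present in 34.4% (31.3 to 37.7%) of hosts and 33.6% (32.4 to 34.7%) of MLL1-free peaks, and at 3001 to 5000 bp in 45.8% (42.4 to 49.3%) and 44.4% (42.7 to 46.1%). Above 5000 bp the shares were 59.0% (54.9 to 63.1%) and 54.6% (51.5 to 57.6%). When all H3K4me2 peaks with any MLL1 site were counted, WDR5-positive sites included, the shares at 2001 to 3000 and 3001 to 5000 bp were 41.7% (38.6 to 44.8%) and 51.2% (47.9 to 54.5%). The rule removes WDR5 that lies on the site itself, so the share among the hosts is partly set by it in both comparisons.

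H3K4me2 was called again over nearly every WDR5-negative site in the other lists. It was called over 3798 sites under MM-401, or 96.6% (96.0 to 97.1%), against a background of 51.1% over all autosomal MLL1 peaks. Under EtOH it was called over 3786 sites, or 96.3% (95.6 to 96.8%; background 51.5%), and under 4OHT over 3746 sites, or 95.2% (94.5 to 95.9%; background 50.9%). Because these sites were chosen with H3K4me2, the closest comparison is with the WDR5-positive sites, whose shares were 99.3, 98.9 and 98.9%. The difference, WDR5-negative minus WDR5-positive, was -2.78 points under MM-401 (Newcombe 95% interval -3.53 to -1.42), -2.64 points under EtOH (-3.54 to -1.10) and -3.66 points under 4OHT (-4.61 to -2.09). Among the widest 50% of MLL1 peaks the first pair of intervals included 0, with -1.94 points under MM-401 (-2.88 to 0.0778) and -1.24 points under EtOH (-2.58 to 1.26). All 3 other lists had H3K4me2 over 3663 sites, or 93.1% (background 48.9% of MLL1 peaks and 54.8% of DMSO H3K4me2 peaks).

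**Figure D2:**
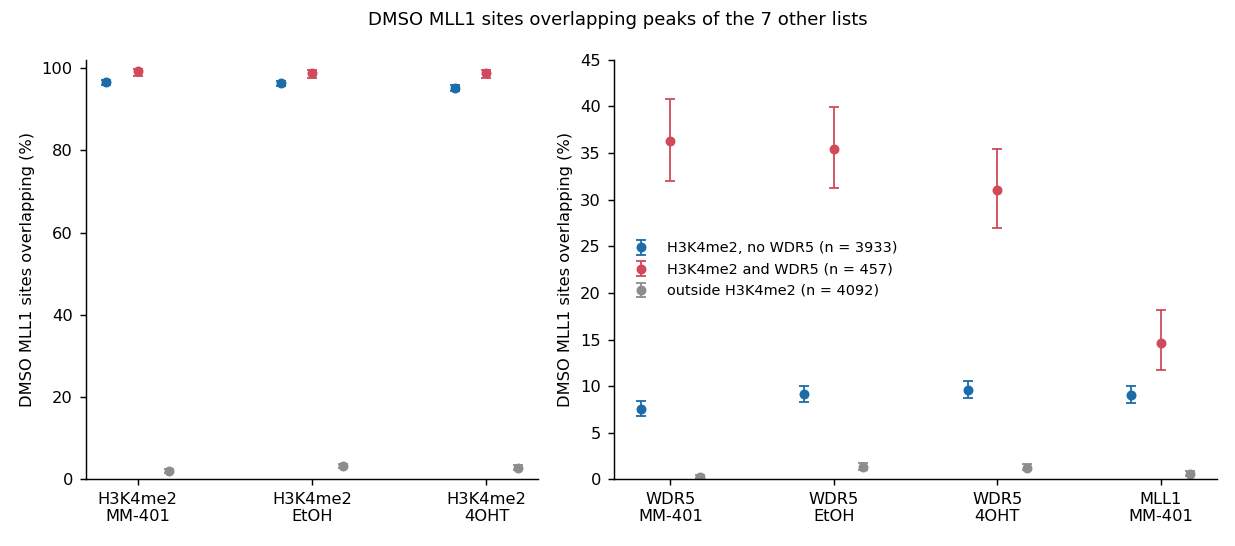
Share of DMSO MLL1 sites (y axis, %) overlapping H3K4me2 (left) or WDR5 and MLL1 (right) in each other list (x axis), for the 3933 WDR5-negative, 457 WDR5-positive and 4092 H3K4me2-free sites, with 95% Wilson intervals. WDR5-negative sites are near the WDR5-positive ones for H3K4me2, at 95.2 to 96.6%, and fall between the other classes for WDR5, at 7.55 to 9.61%.

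Absence of an H3K4me2 call in another list was most frequent in narrow domains. The EtOH and 4OHT lists came from other cells than the DMSO list, so absence there is not a loss upon treatment. Of the 135 sites without it under MM-401, 95 had hosts of up to 1000 bp, as did 108 of 147 under EtOH and 129 of 187 under 4OHT, although such hosts held only 397 of the 3933 sites. The remaining 40, 39 and 58 sites had wider hosts, including 7, 3 and 6 above 5000 bp. In hosts of up to 500 bp, 54.8% of 157 sites had H3K4me2 under MM-401, 61.8% under EtOH and 45.2% under 4OHT. In hosts of 501 to 1000 bp the shares were 90.0, 80.0 and 82.1% of 240 sites, and in hosts of 2001 to 3000 bp they were 99.3 to 99.5% of 919 sites. In every class above 1000 bp, the interval of the difference from WDR5-positive sites included 0 in all 3 lists. In the classes up to 1000 bp the interval lay below 0 only under 4OHT, with differences of -46.4 points (-56.7 to -18.3) up to 500 bp and -17.9 points (-23.3 to -2.43) at 501 to 1000 bp. Only 12 and 22 WDR5-positive sites were available there. All 50 sites with H3K4me2 in none of the other lists had no WDR5 in the host, and 0 of the 1333 sites with WDR5 in the host were among them (upper bound of the interval 0.287%). Host width differed between these sets: 43 of the 50 sites had hosts of up to 1000 bp, where only 20 sites had WDR5 in the host, and none of the 157 sites in hosts up to 500 bp had any. The widest of these that can be named were chr1:183175656-183175945 and chr12:80545602-80545832, each with a 125 bp host, and chr2:156307946-156308179 with a 425 bp host. None of them was overlapped by WDR5 or MLL1 in any other list.

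**Figure D3:**
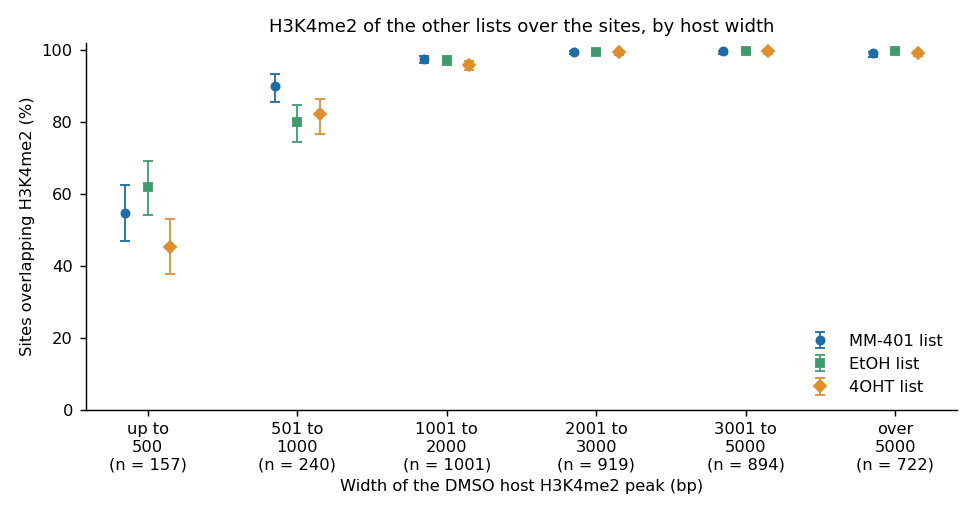
Share of WDR5-negative sites overlapping H3K4me2 (y axis, %) in the MM-401, EtOH and 4OHT lists, by width of the DMSO host domain in bp (x axis), with 95% Wilson intervals. The shares lie between 45.2 and 61.8% in hosts up to 500 bp and above 95% in all hosts over 1000 bp.

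Most of the domains were overlapped by a called H3K4me2 peak again. Without peak heights, a lower level of the mark under a called peak cannot be seen. The study reported partial as well as complete loss of H3K4me2 under MM-401, together at the majority of its H3K4me2 peaks. Its count includes partial loss, which an overlap of 1 bp does not measure. Of the 3552 hosts, 3478 were overlapped by H3K4me2 under MM-401, 3463 under EtOH and 3449 under 4OHT (backgrounds of 69.4, 69.4 and 65.9% of all DMSO H3K4me2 peaks). H3K4me2 covered 93.2% of the bases of the hosts under MM-401, 95.9% under EtOH and 93.7% under 4OHT, and 94.1, 94.0 and 93.3% of the bases of the sites. Where hosts had no DMSO WDR5, those with a WDR5-negative site were overlapped by H3K4me2 more often than peaks of like width without MLL1, up to 2000 bp. Up to 500 bp the shares under MM-401 were 58.0 and 44.4%, a difference of 13.6 points (5.73 to 21.0), and at 1001 to 2000 bp they were 99.9 and 99.2%, a difference of 0.671 points (0.0810 to 0.861). The EtOH and 4OHT lists gave differences in the same direction in these classes, each with an interval above 0. Above 2000 bp at least 99.3% of both kinds of peak were overlapped and the intervals included 0, with little room for a difference. With 50% or more of the peak covered, hosts were above at 2001 to 3000 bp under EtOH, by 2.27 points (0.993 to 3.04), and 4OHT, by 2.69 points (1.33 to 3.53). At 3001 to 5000 bp they were above under 4OHT, by 1.67 points (0.0900 to 2.70). In all other cases above 2000 bp that interval included 0. Hosts were somewhat wider than the MLL1-free peaks within each class, for example with medians of 275 and 200 bp up to 500 bp, and the part of this in the difference was not tested.

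WDR5 was called over under 10% of WDR5-negative sites in each other list. It overlapped 297 sites under MM-401, or 7.55% (6.77 to 8.42%; background 5.59%), 359 under EtOH, or 9.13% (8.27 to 10.1%; background 6.78%), and 378 under 4OHT, or 9.61% (8.73 to 10.6%; background 6.74%). The WDR5-positive sites were overlapped in 36.3% (32.0 to 40.8%), 35.4% (31.2 to 39.9%) and 31.1% (27.0 to 35.5%) of cases. The differences of the WDR5-negative sites from these were -28.8 points under MM-401 (-33.3 to -24.4), -26.3 points under EtOH (-30.9 to -22.0) and -21.5 points under 4OHT (-25.9 to -17.3). The WDR5-negative sites were lower in each of the 6 classes of host width in all 3 lists, with every interval below 0. Both kinds of site were separated by WDR5 in the DMSO list. A lower share in other lists of the same antibody is therefore partly set by the rule, and shows how far WDR5 calls recurred between lists. Sites outside H3K4me2 were at 0.269, 1.32 and 1.27%. The order of the 3 lists followed their length and changed to 6.33% under MM-401, 5.98% under EtOH and 6.0% under 4OHT when each was cut to its 14289 widest autosomal peaks, as many as the DMSO list holds. In the order MM-401, EtOH and 4OHT the shares fell to 2.97, 4.25 and 4.5% when 50% of the site had to be covered, and rose to 25.5, 29.9 and 31.9% when a WDR5 peak up to 500 bp away was counted.

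At most WDR5-negative sites WDR5 was called in none of the lists. No WDR5 peak overlapped 3087 of them in the 3 other lists, or 78.5% (77.2 to 79.7%), and 846, or 21.5% (20.3 to 22.8%; background 14.3%), were overlapped in 1 or more. Only 22 sites were overlapped in all 3 (0.559%; background 0.896%), against 46 of the 457 WDR5-positive sites, or 10.1%. Single lists accounted for 680 of the 846 sites, with 204 overlapped under MM-401 alone, 219 under EtOH alone and 257 under 4OHT alone. Among the 22, the 3 widest that can be named were chr10:84565591-84565936, 81389 bp from the nearest DMSO WDR5 peak, chr11:6288860-6289177 at 25748 bp, and chr1:174242117-174242420 at 555 bp. At the first pair the DMSO list held no WDR5 nearby, although WDR5 was called over the site in each other list.

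WDR5 in the other lists was called more often over sites close to a DMSO WDR5 peak. Sites at most 200 bp from a DMSO WDR5 peak in the host were overlapped by WDR5 in 15.9% of cases under MM-401, 15.9% under EtOH and 18% under 4OHT (n = 327). For sites with no WDR5 in the host the shares were 6.85, 8.08 and 8.65% (n = 2600). The differences were 9.06 points (5.34 to 13.5), 7.83 points (4.09 to 12.3) and 9.39 points (5.43 to 14.0). Sites at most 200 bp away were below the WDR5-positive sites, with differences of -20.4 points (-26.2 to -14.3), -19.5 points (-25.3 to -13.5) and -13 points (-18.8 to -6.94). The distances and the WDR5-positive class both come from the DMSO WDR5 list, so these differences are partly set by the rule. Host width was not held equal between these distances, and its part was not tested. Beyond 1000 bp the shares were 4.5 to 9.47%, and their Wilson intervals overlapped those of sites without WDR5 in the host.

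**Figure D4:**
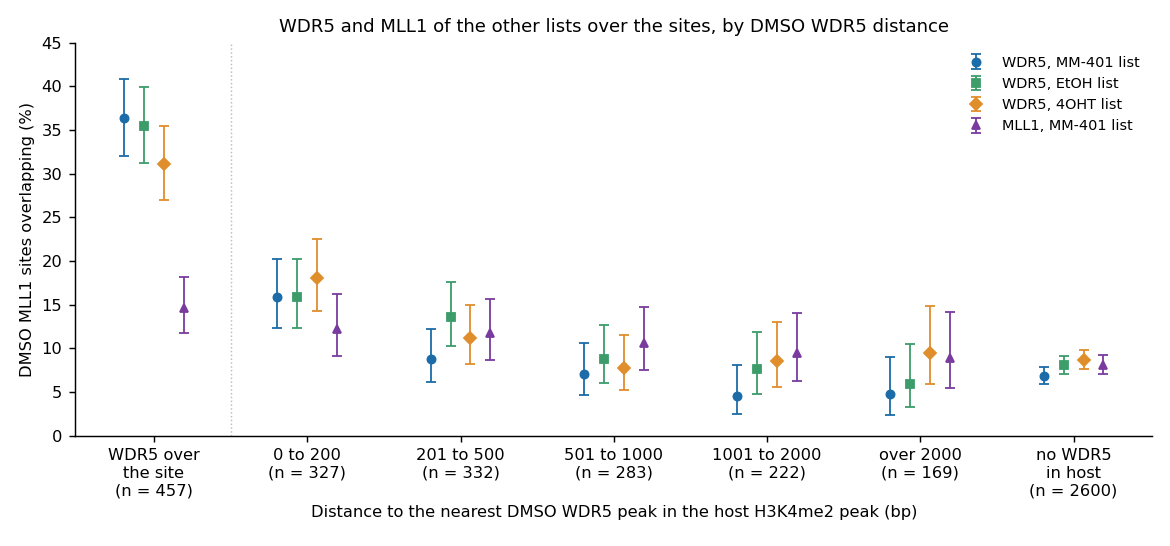
Share of DMSO MLL1 sites (y axis, %) overlapping WDR5 in the MM-401, EtOH and 4OHT lists or MLL1 in the MM-401 list, by distance in bp from the DMSO WDR5 peak (x axis), with 95% Wilson intervals. WDR5-positive sites are at the left, WDR5-negative sites with WDR5 in the host follow by distance, and those without are at the right. WDR5 shares fall from 31.1 to 36.3% over WDR5 to 15.9 to 18% within 200 bp.

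WDR5 was called somewhere in the host domain more often than over the site itself. Of the 2391 hosts without DMSO WDR5, 25.9% (24.2 to 27.7%; background 12.1% of all DMSO H3K4me2 peaks) held WDR5 under MM-401, 34.1% (32.2 to 36.0%; background 13.7%) under EtOH and 37.0% (35.1 to 38.9%; background 14.2%) under 4OHT. These backgrounds include peaks with DMSO WDR5. Among MLL1-free peaks without it the shares were 5.85, 8.05 and 8.92%, at a median width of 350 bp against 2025 bp for the hosts. A host offers many more bases for an overlap than a site does. In 988 of these hosts, or 41.3%, WDR5 was absent from all 4 lists, and in 204, or 8.53%, it was called in the 3 other lists. Among all DMSO H3K4me2 peaks without DMSO WDR5, which are mostly narrower, these shares were 82.4 and 1.28%. In the class of 2001 to 3000 bp WDR5 was absent from all lists in 28.3% (24.7 to 32.2%) of hosts and 40.5% (39.0 to 42.0%) of MLL1-free peaks. It was called in the 3 other lists in 7.71% (5.77 to 10.2%) and 6.22% (5.53 to 6.99%), with overlapping intervals. At 1001 to 2000 bp the latter shares were 4.46% (3.24 to 6.11%) of hosts and 2.14% (1.92 to 2.40%) of MLL1-free peaks. At 3001 to 5000 bp the interval was also higher for hosts, at 13.6 to 20.7% against 10.4 to 13.4%. In the remaining classes these intervals overlapped. Of the 1161 hosts with DMSO WDR5, 65.5, 67.9 and 69.6% held it again, 454, or 39.1%, held it in all 4 lists and 92, or 7.92%, in DMSO alone. Among all H3K4me2 peaks with DMSO WDR5 24.2% held it in all lists and 16.7% in DMSO alone, and at 2001 to 3000 bp the intervals of hosts and MLL1-free peaks overlapped for both counts (26.6 and 24.7%, 10.9 and 12.3%). For the 553 sites whose host held WDR5 in all 4 lists, the median distance to it was 625 bp in DMSO, 492 bp under MM-401, 442 bp under EtOH and 411 bp under 4OHT. The rule bars overlap in DMSO and not elsewhere, which by itself makes the DMSO distance larger.

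The share of hosts holding WDR5 was larger in wide than in narrow domains, and from 1001 to 5000 bp it exceeded that of MLL1-free peaks in all 3 lists. Among peaks without DMSO WDR5, hosts of 1001 to 2000 bp held WDR5 under MM-401 in 17.8% of cases and MLL1-free peaks in 13.3%, a difference of 4.57 points (2.02 to 7.42). At 2001 to 3000 bp the difference was 5.20 points (1.37 to 9.29) and at 3001 to 5000 bp 9.36 points (4.27 to 14.5). The EtOH and 4OHT lists gave differences of 6.77 to 10.2 points in these 3 classes, each with an interval above 0. Above 5000 bp the difference was 12.0 points (4.08 to 19.9) under MM-401, while it was 0.395 points (-7.55 to 8.36) under EtOH and 5.83 points (-2.09 to 13.5) under 4OHT. Under EtOH the share of hosts no longer climbed there, at 50% for 3001 to 5000 bp and 48.6% above. Up to 500 bp the differences were 1.79 points (-0.0325 to 5.84), 3.35 points (0.860 to 7.99) and -0.916 points (-1.85 to 2.34) under MM-401, EtOH and 4OHT, and at 501 to 1000 bp 2.57 points (-0.414 to 6.98), 4.37 points (0.630 to 9.41) and 9.12 points (4.54 to 14.8). Hosts had larger median widths than MLL1-free peaks here too, at 1550 against 1375 bp at 1001 to 2000 bp and 3625 against 3575 bp at 3001 to 5000 bp.

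**Figure D5:**
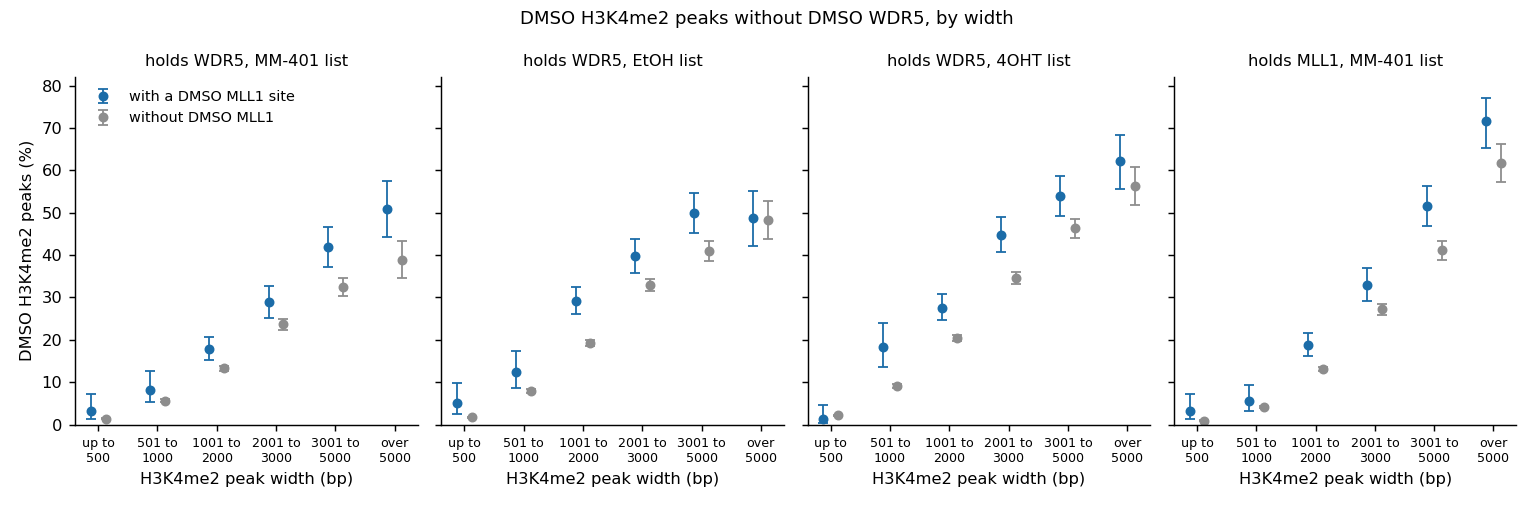
Share of DMSO H3K4me2 peaks without DMSO WDR5 (y axis, %) that held WDR5 in the MM-401, EtOH or 4OHT list, or MLL1 in the MM-401 list, by peak width in bp (x axis), for hosts of WDR5-negative sites and for peaks without DMSO MLL1, with 95% Wilson intervals. Both kinds climb with width up to 5000 bp, beyond which hosts stay level under EtOH (50 and 48.6%). At 3001 to 5000 bp hosts are above MLL1-free peaks in each panel, for example 51.6 against 41.1% for MLL1.

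MLL1 under MM-401 was called over 356 WDR5-negative sites, or 9.05% (8.19 to 9.99%; background 5.28%). This comparison also sets one peak caller against another, and the MM-401 MLL1 list held 27345 peaks against 8525 under DMSO. The share fell to 5.14% with the MM-401 list cut to the length of the DMSO list and to 3.61% with 50% of the site covered, and rose to 23.3% with peaks up to 500 bp away. The share was 14.7% (11.7 to 18.2%) at WDR5-positive sites, a difference of -5.61 points (-9.25 to -2.52), and it was 0.611% at sites outside H3K4me2. The difference was not uniform over host width. It was -30.1 points (-57.8 to -10.2) up to 500 bp, -19.8 points (-40.6 to -6.86) at 501 to 1000 bp and -13.4 points (-25.4 to -4.03) above 5000 bp. At 1001 to 2000 bp it was 0.606 points (-5.50 to 4.16), and the intervals at 2001 to 3000 and 3001 to 5000 bp included 0 as well. Sites with and without WDR5 in the host were at 10.9 and 8.12%, a difference of 2.76 points (0.846 to 4.80) whose interval included 0 within every class of host width that held both.

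MLL1 was found near the site more often than over it. An MM-401 MLL1 peak was present somewhere in the host of 1604 sites, or 40.8% (39.3 to 42.3%). At 1250 of the sites it did not overlap the site and lay at a median of 610 bp. As for WDR5, a host offers many more bases for an overlap than a site does. Per domain, 30.7% (28.8 to 32.5%) of hosts without DMSO WDR5 and 52.7% (49.8 to 55.6%) of hosts with it held MLL1 under MM-401. The background was 8.87% of all DMSO H3K4me2 peaks, which are mostly narrower. Hosts with DMSO WDR5 were also wider than those without, with medians of 3475 and 2025 bp, and the part of width was not tested. Among peaks without DMSO WDR5, hosts exceeded MLL1-free peaks of like width by 5.73 points (3.12 to 8.63) at 1001 to 2000 bp, 5.80 points (1.79 to 10.0) at 2001 to 3000 bp, 10.5 points (5.24 to 15.7) at 3001 to 5000 bp and 9.83 points (2.22 to 17.0) above 5000 bp.

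Wider WDR5-negative sites were overlapped more often by WDR5 in the other lists and by MLL1 under MM-401. In the widest 25% of WDR5-negative sites, of 206 bp and more, WDR5 was called in 11.5% of cases under MM-401, 13.2% under EtOH and 12.5% under 4OHT, and MLL1 under MM-401 in 12.5%. In the narrowest 25%, up to 163 bp, the shares were 5.08, 6.71, 8.03 and 7.01%. The differences were 6.39 points (3.98 to 8.86), 6.51 points (3.87 to 9.18), 4.47 points (1.79 to 7.18) and 5.49 points (2.87 to 8.13). A wider peak offers more bases for an overlap, and its part in these differences was not tested. In each of the 4 width classes the WDR5 shares of WDR5-negative sites were below those of WDR5-positive sites, with all intervals below 0. Here too the DMSO WDR5 list had separated both kinds of site. For MLL1 under MM-401 the difference from WDR5-positive sites varied with site width. It was -2.89 points (-10.4 to 1.88) up to 163 bp and -0.364 points (-7.34 to 3.97) at 164 to 182 bp. At 183 to 205 bp it was -6.68 points (-15.6 to -0.379), and from 206 bp -9.02 points (-16.3 to -2.91).

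Taking the lists at once, 2828 sites, or 71.9% (70.5 to 73.3%), had H3K4me2 in all 4 lists and WDR5 in none, and 252 of these, or 6.41% of all WDR5-negative sites, were also overlapped by MLL1 under MM-401. Over all autosomal MLL1 peaks, 35.6% had H3K4me2 in the 3 other lists and WDR5 in none of them, and 3.21% had MLL1 as well. For WDR5-positive sites the shares in those 3 lists were 36.1% (31.8 to 40.6%) and 4.16% (2.68 to 6.40%). The DMSO lists of the same antibodies had chosen the sites, so these gaps are partly set by the rule. Of the 3020 peaks behind the 35.6%, 2828 were the WDR5-negative sites themselves. The widest named of the 252 were chr1:152238989-152239447 (459 bp), chr7:87792340-87792728 (389 bp) and chr15:38231375-38231760 (386 bp). The first lay 313 bp from DMSO WDR5 and 203 to 353 bp from WDR5 in the other lists. The second was 8647 bp away in DMSO and 739 bp away under EtOH. Broad domains without DMSO WDR5 gave the other extreme. The site chr2:3683634-3683771 had a 26025 bp host and was 101858 bp from DMSO WDR5, 93408 bp from it under MM-401 and 4333 bp under EtOH. A second domain, of 19400 bp on chromosome 5, held chr5:108152376-108152566 and chr5:108153923-108154194. These lay 25984 and 24356 bp from DMSO WDR5, and 209 and 897 bp from WDR5 under EtOH.

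WDR5-negative and WDR5-positive sites were spread differently over the chromosomes. Chromosome 1 carried 260 of the WDR5-negative sites, or 6.61% (5.88 to 7.43%), against 16.4% (13.3 to 20.1%) of WDR5-positive sites. It also carried 14.7% (13.7 to 15.9%) of the MLL1 sites outside H3K4me2, 10.8% of the WDR5 peaks and 7.36% of the H3K4me2 peaks. Of the MLL1 peaks with H3K4me2 on chromosome 1, 22.4% (18.3 to 27.2%) had WDR5, while the other autosomes ranged from 7.00 to 12.3%. The difference between chromosome 1 and the rest was 13 points (8.73 to 17.8). These are values of the lists that chose the sites, and no cause was tested. Leaving chromosome 1 out, an alternative chosen after the data were seen, kept each of the 18 values tried within its interval or, for the number of sites, within 1.5 times.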

How the data were processed

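The data were 10 peak lists from 10 ChIP libraries. The authors deposited the chromosome, start and end of each peak, from 1 library at a time, with no score, height or count. The submitters' processing notes name Bowtie and mm9 without a role. The study gives MACS for the MLL1 peaks of these cells, and the other 9 lists carry HPEAK names and lie on a 25 bp grid. Starts of the DMSO MLL1 list were read as 0-based and all others as 1-based. The 4 inputs were not analysed here.

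Peaks were compared with Python 3.11.15, numpy 2.4.6, pandas 2.3.3 and scipy 1.17.1, tested on simulated lists and against bedtools 2.31.1. Figures were drawn with matplotlib 3.10.9. Overlap meant 1 shared bp, and distance the bp between edges. Shares have 95% Wilson intervals and differences Newcombe intervals. With 1 library per condition and antibody, no test between conditions was run and depth is unknown.

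Sites named are the 3 first, outside chromosome 18, by host width without WDR5, by MLL1 width with H3K4me2 in all lists, MLL1 under MM-401 and no WDR5, by MLL1 width with WDR5 in the 3 other lists or H3K4me2 in none of them, and by distance or shared bases at the boundary. Alternatives changed the overlap, the lists read, the MLL1 peaks, the sites per host, the rule's distance and the coordinate base. Members and lists were chosen with earlier results of these data known. Planned gene, promoter, motif and sequence steps were not run, because the reference used here was GRCm38 and not mm9.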

Additional observations from a re-analysis of the deposited data

Results flagged for a closer look

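The widest H3K4me2 peak over a host changed in opposite directions on average in the 2 kinds of cells. Among the 3478 hosts overlapped in both lists, its mean width was 270 bp larger under MM-401 (3493 bp) than under DMSO (3223 bp). Among the 3432 hosts overlapped in both flox lists, the mean difference of 4OHT minus EtOH was -1104 bp (3804 and 4908 bp). The first change was not a general one, since 1698 hosts had a wider peak under MM-401, 1695 a narrower one and 85 an equal one, with a median difference of 0 bp. Under 4OHT 2637 hosts had a narrower peak and 726 a wider one, with a median difference of -375 bp. With 1 library per condition the difference was not tested. The hosts were defined in the DMSO list, so the DMSO width is the only one that also served in the choice. The share of hosts lying over 2 or more peaks was 25.7% under MM-401, 17.8% under EtOH and 22.5% under 4OHT.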

How the results depend on the processing

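Of 137 values recomputed under the alternatives, 77 stayed within the interval of the reported value, 58 lay outside it, 2 kept their direction but gained an interval that included 0, and none reversed. The 24 alternatives of the WDR5 differences, between classes set by the DMSO WDR5 list, all kept intervals below 0. Read with 1-based starts, or without chromosome 1, no value moved outside these limits. No paired analysis was possible because each condition and antibody had 1 library, and leaving out a library was not possible.

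When sites with DMSO WDR5 within 2 kb were removed, 2472 sites were left, 6.55% had WDR5 in the host at a median of 3216 bp, and the host median was 2300 bp (2425 bp with 1 site per host). H3K4me2 was then at 95.3% under MM-401, 94.3% under EtOH and 93.0% under 4OHT, WDR5 at 7.52% under EtOH and 7.73% under 4OHT, MLL1 at 8.01%, and the H3K4me2 differences at -4.0, -4.65 and -5.90 points.

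In the order MM-401, EtOH and 4OHT, H3K4me2 was at 94.5, 94.4 and 93.7% with 50% of the site covered, 98.8, 98.2 and 98.0% with a distance of up to 500 bp, 94.1, 94.6 and 93.4% with the widest 50% of each list, and 97.3, 96.9 and 96.3% with the widest 50% of MLL1 peaks. WDR5 was at 2.97, 4.25 and 4.5%, at 25.5, 29.9 and 31.9%, at 4.32, 6.56 and 7.04%, and at 8.98, 11.1 and 10.9% under these settings, and at 6.33, 5.98 and 6.0% with lists of equal length. MLL1 was at 3.61, 23.3, 6.46, 10.1 and 5.14% under the same 5 settings.

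The WDR5 differences became -19.6, -18.3 and -13.4 points with 50% covered, -32.0 (EtOH) and -30.5 (4OHT) points within 500 bp, and -23.2 points (MM-401) with the widest 50% of the list. The H3K4me2 differences became -4.37 (MM-401) and -3.82 (EtOH) points with 50% covered, -1.17 (MM-401) and -1.52 (4OHT) points within 500 bp, and -4.83 (MM-401) and -4.08 (EtOH) points with the widest 50% of the list. With the widest 50% of MLL1 peaks they were -1.94 points under MM-401 (-2.88 to 0.0778) and -1.24 points under EtOH (-2.58 to 1.26). The cause was not tested.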
